A study of Homo sapiens with 12 samples.

Results

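This account follows 8 histone genes, H2BC21, H2BC5, H2BC12, H2BC4, H2AC6, H1-2, H1-10 and H2AZ1, in LNCaP, an androgen-responsive prostate cancer cell line. Cells were transfected with 1 of 3 microRNAs (miR-130a, miR-203 and miR-205) or, as control, with a scramble microRNA, so every group went through transfection. Each of the 4 groups had 3 expression arrays, 12 in all, which the labels call biological replicates, and the tumour stage of the line is given as early. The labels used here give no dose or time after transfection. The genes were found by symbol in the platform annotation. They had 12 of the 22277 probe sets (groups of probes read together as 1 value). Of these 12, 9 name a single gene, and 3 are shared by H2BC4, H2BC6, H2BC7, H2BC8 and H2BC10, so that 7 of the 8 genes have a probe set of their own and H2BC4 does not. The genes were selected on their levels in earlier results of these arrays, and which differences decided the choice is not recorded. Every comparison among the 4 groups therefore counts as used in the choice, and the members' values are a description that supports nothing further.

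Histones package DNA into nucleosomes. H2A and H2B are core histones, and H1 proteins bind the linker DNA between nucleosomes. Most histone genes lie in clusters, are transcribed in S phase together with DNA replication, and yield messenger RNAs that end in a stem-loop in place of a poly(A) tail. The protein SLBP binds that stem-loop. Some cluster genes also make polyadenylated transcripts, known from cells that slow or leave the cycle. Replacement genes such as H2AZ1, which encodes the variant H2A.Z, and H1-10, which encodes a linker histone, lie outside the clusters and make polyadenylated messenger RNA. The probe sets do not tell the ends of a transcript apart, so the presence of a poly(A) tail on the RNA measured here could not be checked.

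In the reference annotation 5 members lie on chromosome 6 and 1 each on chromosomes 1, 3 and 4. The stretches before the start sites of 5 members that encode core histones of the clusters are shown to describe their motifs. They are from RefSeq (GRCh38.p14), in the direction of the gene, with bases inside a neighbouring gene left out. The part of the motifs in the levels measured here was not tested. Capitals mark matches on either strand to the octamer ATTTGCAT, known from H2B promoters as a site for POU factors, to CCAAT, bound by NF-Y, and to the TATA box letters TATAAA. No motif shares letters with another except where TATA box matches of opposite strands overlap in H2BC12.
H2BC21, chr1:149886683-149886917, minus strand: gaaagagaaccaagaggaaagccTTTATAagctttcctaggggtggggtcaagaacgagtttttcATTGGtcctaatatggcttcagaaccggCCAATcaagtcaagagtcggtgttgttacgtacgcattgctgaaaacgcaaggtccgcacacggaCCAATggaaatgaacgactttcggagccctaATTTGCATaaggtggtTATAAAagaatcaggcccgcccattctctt
H2BC12, chr6:27146859-27147105, minus strand: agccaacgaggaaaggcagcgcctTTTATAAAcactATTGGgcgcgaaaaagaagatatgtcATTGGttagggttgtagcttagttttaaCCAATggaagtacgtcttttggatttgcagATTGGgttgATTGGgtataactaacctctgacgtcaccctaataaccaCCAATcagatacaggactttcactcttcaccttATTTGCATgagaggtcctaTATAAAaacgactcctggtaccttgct
H2BC5, chr6:26157871-26158120, plus strand: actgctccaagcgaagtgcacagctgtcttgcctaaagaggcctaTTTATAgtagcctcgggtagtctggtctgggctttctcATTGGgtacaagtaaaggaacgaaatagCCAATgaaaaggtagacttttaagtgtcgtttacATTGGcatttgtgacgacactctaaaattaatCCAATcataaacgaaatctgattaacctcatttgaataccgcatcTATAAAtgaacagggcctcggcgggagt
H2BC4 and H2AC6, chr6:26123927-26124171, plus strand, between the start sites of these divergent genes: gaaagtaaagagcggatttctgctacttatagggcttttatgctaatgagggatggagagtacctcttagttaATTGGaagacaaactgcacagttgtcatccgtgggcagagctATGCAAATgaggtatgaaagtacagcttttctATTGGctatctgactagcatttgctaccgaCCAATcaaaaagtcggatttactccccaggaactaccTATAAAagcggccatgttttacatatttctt

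In the full 250 bases before the start site, the octamer was present for 4 of the 8 members, namely H2BC21, H2BC12, H2BC4 and H2AC6, and H2BC4 and H2AC6 hold the same match between them, as they do for every CCAAT and TATAAA match counted for them, so that these letters count for both genes. Among 27305 such windows of all genes in the table, 1.66% hold it. CCAAT was present for 7 of 8 members, against 33.0% of all windows, with 6 matches for H2BC12, 4 for H2BC5, 3 each for H2BC21, H2BC4, H2AC6 and H2AZ1, 1 for H1-2 and 0 for H1-10. TATAAA was present for 7 of 8, against 11.1% of all windows, and H1-2 had 0 matches. The TATAAA match counted for H2BC4 lies 215 to 220 bases before its start and 26 to 31 before that of H2AC6. The octamer of both H2BC21 and H2BC12 lies 39 to 46 bases before the start. These letters are a description of the windows and do not show that a factor binds there.

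**Figure D1:**
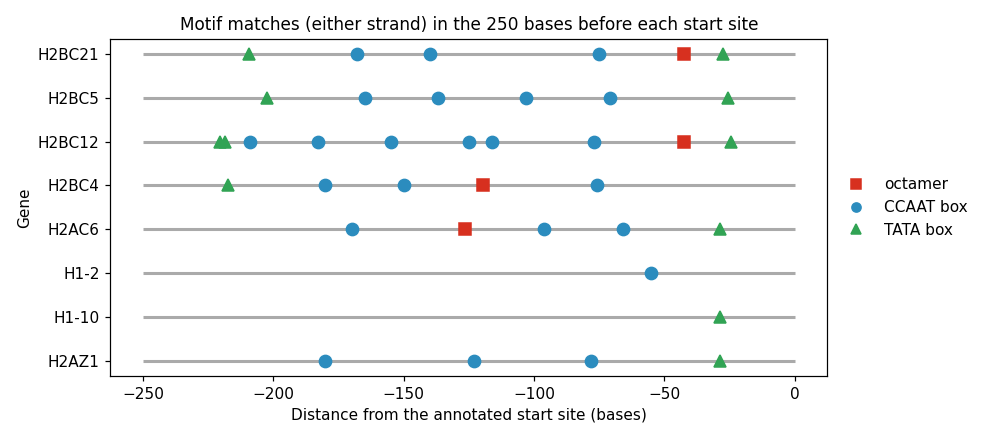
Matches to 3 motifs on either strand (squares, octamer; circles, CCAAT box; triangles, TATA box) by distance from the annotated start site in bases, for the 8 genes. H2BC21 and H2BC12 share the octamer at 39 to 46 bases before the start, and H1-10 has only a TATA box match.

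Among the H2B genes, H2BC21 had the widest spread of levels of any member. On the log2 scale it measured 7.63, 7.75 and 7.72 on miR-130a arrays, 9.45, 9.11 and 9.17 on miR-203 arrays and 9.03, 9.03 and 8.93 on miR-205 arrays, against 7.41, 7.32 and 7.54 on scramble arrays. The miR-203 and miR-205 arrays lay well above all others, and no 2 groups overlapped. The difference from scramble was 1.82 ± 0.09 for miR-203 (SE of the limma fit, 3 arrays a group, as for all differences given), a 3.53-fold level. It was 1.57 ± 0.09 for miR-205, a 2.97-fold level. For miR-130a it was 0.28 ± 0.09 and did not pass the threshold (adjusted p under 0.05 over all 11403 probe sets bright enough to be tested). That call was gained without miR-203 replicate 1 or 2, where the difference stayed at 0.28, and without scramble replicate 3, where it was 0.34, and also with an eBayes trend, with array weights and in a fit of the 6 arrays compared. In order of level the groups ran scramble, miR-130a, miR-205, miR-203. Of the neighbours in that order only miR-130a and miR-205 differed past the threshold. Of 11403 differences from scramble ordered from the highest, that of H2BC21 was number 6 with miR-205 and number 23 with miR-203.

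H2BC5, on chromosome 6, was higher on miR-203 arrays by both of its probe sets. Its probe sets are called A and B. Probe set A measured 7.11, 7.02 and 7.19 on miR-130a arrays, 7.76, 8.19 and 8.32 on miR-203 arrays and 7.26, 7.17 and 7.25 on miR-205 arrays, against 7.24, 7.13 and 7.31 on scramble arrays. Only the miR-203 arrays stood apart, by 0.86 ± 0.12, while miR-205 differed from scramble by 0.001 ± 0.12. Probe set B measured 7.26, 7.03 and 7.21 on miR-130a arrays, 7.90, 7.61 and 7.76 on miR-203 arrays and 7.55, 7.36 and 7.47 on miR-205 arrays, against 7.24, 7.20 and 7.20 on scramble arrays. Here the miR-205 arrays too lay above all scramble arrays, by 0.25 ± 0.09, which did not pass. That call was gained without miR-203 replicate 1, where the difference was the same, and with an eBayes trend, with array weights and in a fit of the 6 arrays compared. With miR-203 probe set B was higher by 0.54 ± 0.09. The manufacturer's names of both probe sets carry an x, which marks probes that can match other transcripts.

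H2BC12, another member H2B gene of chromosome 6, moved otherwise. It measured 10.79, 10.68 and 10.69 on miR-130a arrays, 10.67, 10.57 and 10.70 on miR-203 arrays and 10.17, 10.08 and 10.24 on miR-205 arrays, against 10.49, 10.58 and 10.46 on scramble arrays. The miR-205 arrays were the lowest, by 0.35 ± 0.07 below scramble (log2 difference -0.35), with no overlap with any other group. The differences of 0.21 ± 0.07 with miR-130a and 0.14 ± 0.07 with miR-203 did not pass, and that of miR-130a passed without miR-205 replicate 2 at an unchanged 0.21, and under 4 other settings of the fit.

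H2BC4 could be read only together with 4 relatives, and its 3 shared probe sets, A, B and C, ordered the groups differently. By shared probe set C the levels were 5.59, 5.63 and 5.74 on miR-130a arrays, 6.18, 6.24 and 6.63 on miR-203 arrays and 6.16, 6.12 and 6.17 on miR-205 arrays, against 5.60, 5.55 and 5.33 on scramble arrays. Both miR-203 and miR-205 arrays lay above the others, by 0.86 ± 0.11 and 0.65 ± 0.11 over scramble. By shared probe set A they were 6.64, 6.82 and 6.81 on miR-130a arrays, 7.21, 7.02 and 7.04 on miR-203 arrays and 6.60, 6.74 and 6.61 on miR-205 arrays, against 6.63, 6.90 and 6.82 on scramble arrays. By shared probe set B they were 4.61, 4.95 and 5.0 on miR-130a arrays, 5.31, 5.14 and 5.29 on miR-203 arrays and 4.86, 4.87 and 4.89 on miR-205 arrays, against 4.73, 4.94 and 4.87 on scramble arrays. In both of these only the miR-203 arrays stood apart from scramble, by 0.31 ± 0.09 and 0.40 ± 0.10. The miR-205 differences, which did not pass, were -0.14 ± 0.09 and 0.03 ± 0.10. For shared probe set A the miR-203 call was lost without miR-203 replicate 1 (0.25) and without scramble replicate 1 (0.23).

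H2AC6, an H2A gene that starts head to head with H2BC4, measured 8.28, 8.29 and 8.23 on miR-130a arrays, 9.02, 8.79 and 8.91 on miR-203 arrays and 8.40, 8.39 and 8.28 on miR-205 arrays, against 8.36, 8.24 and 8.32 on scramble arrays. The miR-203 arrays were above all others and the remaining groups overlapped. With miR-203 the difference from scramble was 0.60 ± 0.07, with miR-205 it was 0.05 ± 0.07 and with miR-130a -0.04 ± 0.07.

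**Figure D2:**
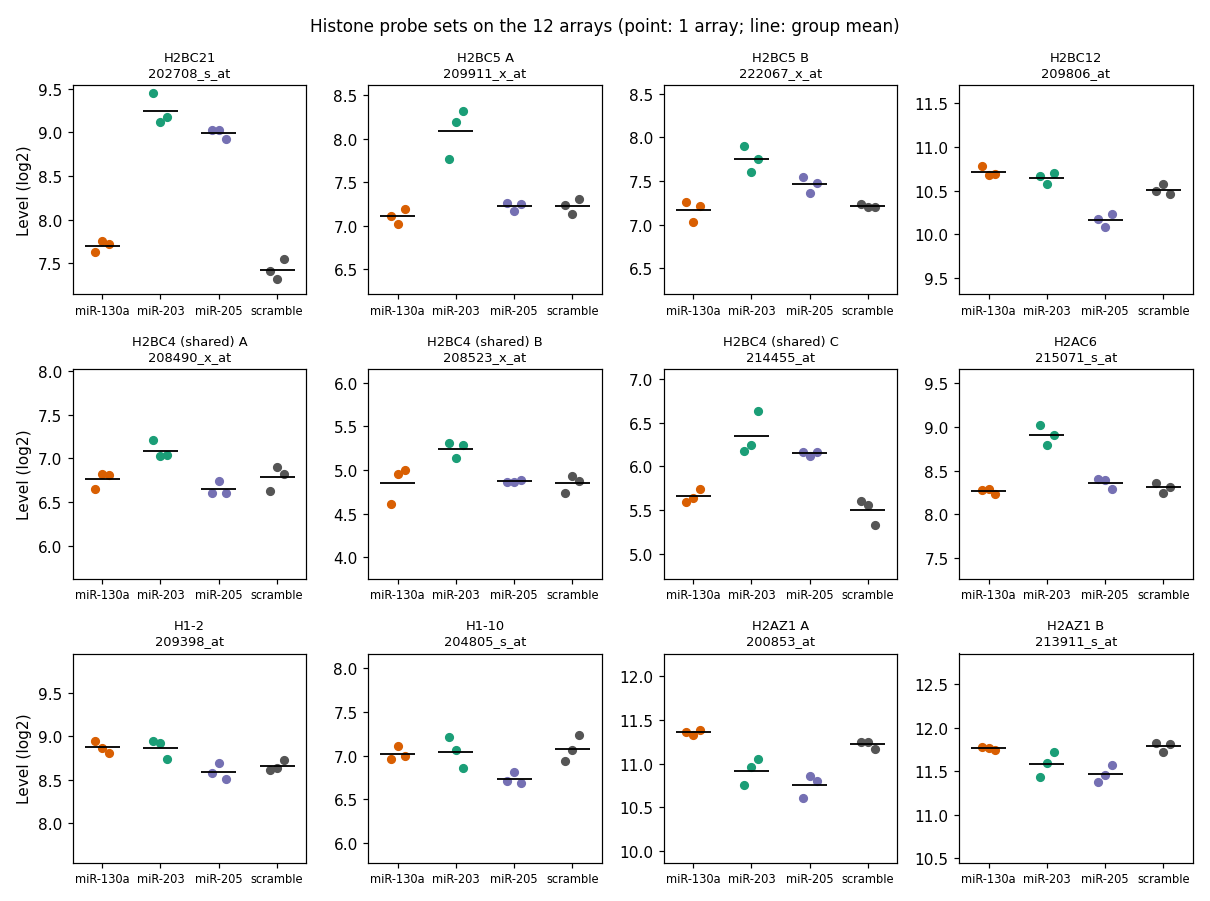
Level (log2) of the 12 probe sets of the 8 genes on every array, by group, with a point for each array and a line for the group mean, and axes of equal span. The miR-203 and miR-205 arrays of H2BC21 lie between 8.93 and 9.45, above the miR-130a and scramble arrays, which end at 7.75.

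The linker histone gene H1-2 measured 8.95, 8.87 and 8.81 on miR-130a arrays, 8.95, 8.92 and 8.74 on miR-203 arrays and 8.57, 8.69 and 8.51 on miR-205 arrays, against 8.61, 8.63 and 8.73 on scramble arrays. All miR-130a and miR-203 arrays were above all scramble arrays, yet by only 0.22 ± 0.08 and 0.21 ± 0.08, which did not pass. That of miR-203 passed without miR-203 replicate 3, at 0.28, and with quantile scaling, an eBayes trend or array weights, and that of miR-130a passed with an eBayes trend. H1-10 measured 6.96, 7.11 and 6.99 on miR-130a arrays, 7.21, 7.07 and 6.85 on miR-203 arrays and 6.71, 6.81 and 6.68 on miR-205 arrays, against 6.94, 7.07 and 7.24 on scramble arrays. Only the miR-205 arrays were below scramble, with a log2 difference of -0.34 ± 0.10. This call was lost without miR-205 replicate 1 (-0.33) or 3 (-0.32) and without scramble replicate 2 (-0.35) or 3 (-0.27).

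H2AZ1 ran in the direction opposite to H2BC21. Its probe set A measured 11.36, 11.32 and 11.39 on miR-130a arrays, 10.75, 10.96 and 11.05 on miR-203 arrays and 10.61, 10.85 and 10.80 on miR-205 arrays, against 11.25, 11.24 and 11.17 on scramble arrays. The miR-203 and miR-205 arrays were below all others and overlapped each other. Differences from scramble were -0.30 ± 0.09 with miR-203, -0.47 ± 0.09 with miR-205 and 0.14 ± 0.09 with miR-130a. The miR-203 call was lost without miR-203 replicate 1 (-0.22) and without scramble replicate 2 (-0.29). By its probe set B it measured 11.78, 11.76 and 11.75 on miR-130a arrays, 11.44, 11.60 and 11.72 on miR-203 arrays and 11.37, 11.46 and 11.57 on miR-205 arrays, against 11.82, 11.72 and 11.82 on scramble arrays. The differences were smaller in size here, -0.20 ± 0.08 with miR-203, which did not pass but did so without miR-203 replicate 3 (-0.27), with an eBayes trend and with array weights, and -0.32 ± 0.08 with miR-205, which was lost without miR-205 replicate 1 (-0.27).

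Counted over the 12 probe sets, all of which were bright enough to be tested on all 12 arrays, miR-203 arrays had 7 higher and 1 lower than scramble past the threshold, and 4 that did not pass. Among all probe sets tested 33.5% passed in that comparison, 15.8% higher and 17.6% lower. For miR-205 the counts were 2 higher and 4 lower, with 6 not passing, beside 23.6% of all probe sets, 11.2% higher and 12.4% lower. For miR-130a 0 of 12 passed by limma (3 had an unadjusted p under 0.05), beside 21% of all probe sets, 11.1% higher and 9.82% lower. Under other settings of the same fit 0 to 3 of the 12 passed for miR-130a. Arrays did not overlap scramble for 10 of 12 probe sets with miR-203, 7 with miR-205 and 4 with miR-130a, beside 41.9%, 37% and 37.5% of all probe sets. The median difference over the 12 was 0.35 with miR-203, -0.03 with miR-205 and -0.01 with miR-130a, and the median of all probe sets lay between -0.002 and 0.009. These 3 comparisons share their scramble arrays, and the choice of members was made knowing them.

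**Figure D3:**
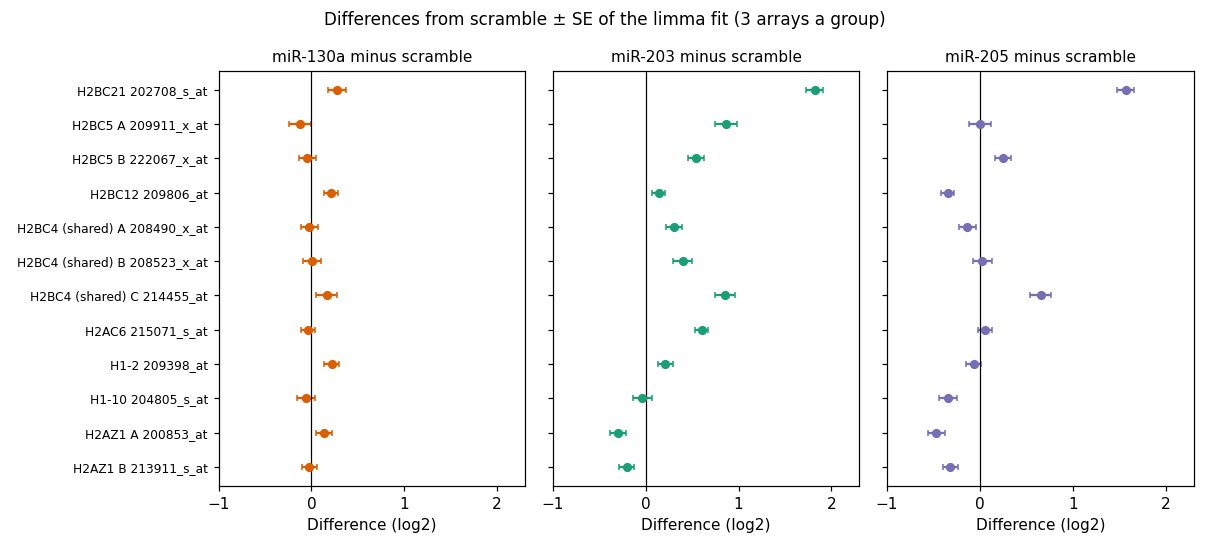
Difference from scramble (log2) of each of the 12 probe sets with miR-130a, miR-203 and miR-205, with bars for the SE of the limma fit over 3 arrays a group. H2BC21 is at 1.82 with miR-203 and 1.57 with miR-205, and both H2AZ1 probe sets lie below 0 with these microRNAs.

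Between microRNAs, H2BC21 was lower with miR-130a than with miR-203 by 1.54 ± 0.09 (log2 difference -1.54) and than with miR-205 (log2 difference -1.29 ± 0.09). Between miR-203 and miR-205 it differed by 0.25 ± 0.09, which did not pass but did so without miR-203 replicate 2 (0.32) and with an eBayes trend. The largest differences of miR-203 over miR-205 were H2BC5 by probe set A (0.86 ± 0.12), H2AC6 (0.55 ± 0.07) and H2BC12 (0.49 ± 0.07). In that comparison 8 of 12 probe sets were higher, 0 were lower and 4 did not pass, beside 34.9% of all probe sets, 17.7% higher and 17.2% lower. With miR-130a against miR-203, 1 of 12 was higher and 7 were lower, beside 37.9% of all probe sets, 20.2% higher and 17.7% lower. With miR-130a against miR-205, 5 were higher, among them H2AZ1 by probe set A (0.61 ± 0.09) and H2BC12 (0.56 ± 0.07), and 3 were lower, beside 30.7% of all probe sets, 15.7% higher and 15% lower. Of these calls, 1 or more of H1-2, H1-10, H2BC5 by probe set B, shared probe set A and H2AZ1 by probe set B were lost on leaving out single arrays. Without miR-205 replicate 3, for example, H1-2 was at 0.24 over miR-205 with both miR-130a and miR-203, and H1-10 was at 0.28 with miR-203. The count for miR-130a against miR-205 fell to 4 without miR-205 replicate 1 and to 5 without replicate 3, and that for miR-203 against miR-205 to 5 without miR-205 replicate 3.

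Across the 12 arrays, as a description over points that share 4 treatments, H2BC21 followed shared probe set C most closely among the members (Pearson r = 0.91), then H2BC5 by probe set B (r = 0.87), and ran against H2AZ1 by probe set A (r = -0.85). Both probe sets of H2AZ1 went together (r = 0.91), as did shared probe sets A and B (r = 0.89), while shared probe sets A and C, annotated to the same 5 genes, had r = 0.34. H2AC6 followed both probe sets of H2BC5 (r = 0.88 each). H2BC12 had r = 0.71 with H1-2 and r = -0.34 with H2BC21. Outside the 8 genes and by the brightest probe set of each gene, the profiles most like that of H2BC21 over the 12 arrays were those of YIPF6 (r = 0.97), BNIP3, a mitochondrial protein of the BCL2 family (r = 0.97), and PFKM, the muscle phosphofructokinase (r = 0.97). For H2BC5 they were AK6, ABCG1 and TPMT (r = 0.97 each), and for H2AC6 GSTM3, POLR3G (r = 0.98 each) and GRAMD2B (r = 0.98). For H2BC12 they were STK24, TDP1 and LETM1 (r = 0.96 each), for H1-2 BRD3 (r = 0.95), ECSIT (r = 0.93) and CAB39L (r = 0.92), and for H1-10 RHOC (r = 0.94), RPL19 (r = 0.92) and WBP2 (r = 0.90). For H2AZ1 they were SH3BP4 (r = 0.96), XBP1 (r = 0.95) and RRM1, the large subunit of ribonucleotide reductase (r = 0.95).

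Other histone genes were read in the same way. By their symbols 36 further genes with a probe set naming no other gene were classed as cluster genes. Of these, 11 were bright enough to be tested, and a gene can pass that filter through the group where it is high. Among those tested, H1-3 was above the array median on 11 arrays and the others on all 12. With miR-203 5 of the 11 rose and 0 fell, where 17.3% of all 6821 genes tested rose, with a median difference of 0.26 against 0.006 over all genes. They were H2AC25, which rose by 0.92 ± 0.12 (adjusted p = 0.000101), H4C8 by 0.67 ± 0.15 (adjusted p = 0.00328), H2AC8 by 0.38 ± 0.09 (adjusted p = 0.00506), H2BC6 by 0.32 ± 0.11 (adjusted p = 0.0318) and H2BC9 by 0.27 ± 0.09 (adjusted p = 0.0267). The count was 3 without scramble replicate 1 or 3. H2BC6 lost its call also without miR-203 replicate 1 (0.16) or scramble replicate 2 (0.34), and H2BC9 without miR-203 replicate 1 (0.21) or 3 (0.24). With miR-205 0 rose and 1 fell, H2BC12L at -0.28 ± 0.08 (adjusted p = 0.0243), and with miR-130a 0 rose and 1 fell, H2AC25 at -0.58 ± 0.12 (adjusted p = 0.00476). The miR-205 count was 0 without scramble replicate 3 or miR-205 replicate 2 or 3, and 2 without miR-203 replicate 1, and H2BC12L also lost its call without scramble replicate 2 (-0.26). The others tested, H2AC14, H2AC17, H3C8, H4C11 and H1-3, did not pass in any of the 3 comparisons. Probe sets of H2BC6, H2BC9, H2BC12L, H2AC14, H3C8 and H4C11 carry the x in their names, so their probes can match other transcripts.

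Among other probe sets that name several genes, 1 or more of them a cluster or replacement histone gene, 21 of 27 were tested. With miR-203 8 rose, all of cluster genes, and 1 fell, and with miR-205 4 rose and 3 fell. With miR-130a 0 passed (0 rose and 0 fell by limma, and 1 had an unadjusted p under 0.05). Of all probe sets tested 33.5% passed with miR-203, 15.8% higher and 17.6% lower, 23.6% with miR-205 and 21% with miR-130a. The H2A genes H2AC18 and H2AC19, which lie near H2BC21 in the reference annotation of chromosome 1, share 2 tested probe sets. By one of them they measured 9.75, 9.75 and 9.63 on miR-130a arrays, 10.88, 10.56 and 10.69 on miR-203 arrays and 10.26, 10.13 and 10.11 on miR-205 arrays, against 9.65, 9.48 and 9.64 on scramble arrays. As for H2BC21, miR-203 and miR-205 arrays were both above scramble arrays. They rose by 1.12 ± 0.09 with miR-203 (adjusted p = 2.09e-06) and by 0.58 ± 0.09 with miR-205 (adjusted p = 0.000584), and by the other probe set the values were 1.14 ± 0.10 and 0.48 ± 0.10 (adjusted p = 3.23e-06 and adjusted p = 0.00302). One probe set of H2BC11 and H2BC8 rose by 0.99 ± 0.15 with miR-203 (adjusted p = 0.000249). Of the probe sets shared by H3 genes of the clusters, one rose by 1.11 ± 0.10 with miR-203 (adjusted p = 7.74e-06) and by 0.48 ± 0.10 with miR-205 (adjusted p = 0.0053). Another rose by 0.73 ± 0.08 with miR-203 (adjusted p = 3.38e-05) and fell by 0.25 with miR-205 (adjusted p = 0.0453). The 1 that fell with miR-203 is shared by SLC35F6 and CENPA, the centromere H3 variant, at -0.67 ± 0.20 (adjusted p = 0.0217). With miR-205 it was at -1.41 ± 0.20 (adjusted p = 0.000307). A probe set of CENPA alone, with group means of only 2.98 to 3.10, did not pass. It differed by -0.03 with miR-203 (adjusted p = 0.831) and -0.10 with miR-205 (adjusted p = 0.466). Which gene the shared probe set read was not tested. One probe set shared by H4 genes fell by 0.52 with miR-205 (adjusted p = 0.0142).

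Among replacement histone genes outside the 8, of 6 tested by their brightest probe set, 0 rose and 1 fell with miR-203, 1 rose and 3 fell with miR-205, and 1 rose and 1 fell with miR-130a. H2AX, the H2A variant phosphorylated at DNA breaks, had 9.54 to 9.58 on miR-130a arrays, 8.31 to 8.64 on miR-203 arrays and 7.83 to 8.25 on miR-205 arrays, against 8.93 to 9.20 on scramble arrays. No 2 groups overlapped, and it rose by 0.51 ± 0.11 with miR-130a (adjusted p = 0.00548), fell by 0.57 with miR-203 (adjusted p = 0.0016) and fell by 0.99 with miR-205 (adjusted p = 4.02e-05). With the mean of its probe sets the miR-130a difference was 0.18 and did not pass. H2AZ2, which encodes a protein nearly the same as that of H2AZ1, fell by 0.33 with miR-205 (adjusted p = 0.0082), but its probe set of largest variance differed by 0.13. With miR-203 its brightest probe set differed by -0.13 and did not pass, while its other 2 tested probe sets were both at -0.55 (adjusted p = 0.0103 and adjusted p = 0.00354). MACROH2A1 fell by 0.32 with miR-130a (adjusted p = 0.00246) and rose by 0.20 ± 0.06 with miR-205 (adjusted p = 0.0303), and the miR-205 call was lost without miR-205 replicate 2 (0.19) or 3 (0.18) and without any 1 of the scramble replicates (0.20 each). MACROH2A2 fell by 0.48 with miR-205 (adjusted p = 0.01), lost without miR-205 replicate 1 (-0.38).

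**Figure D4:**
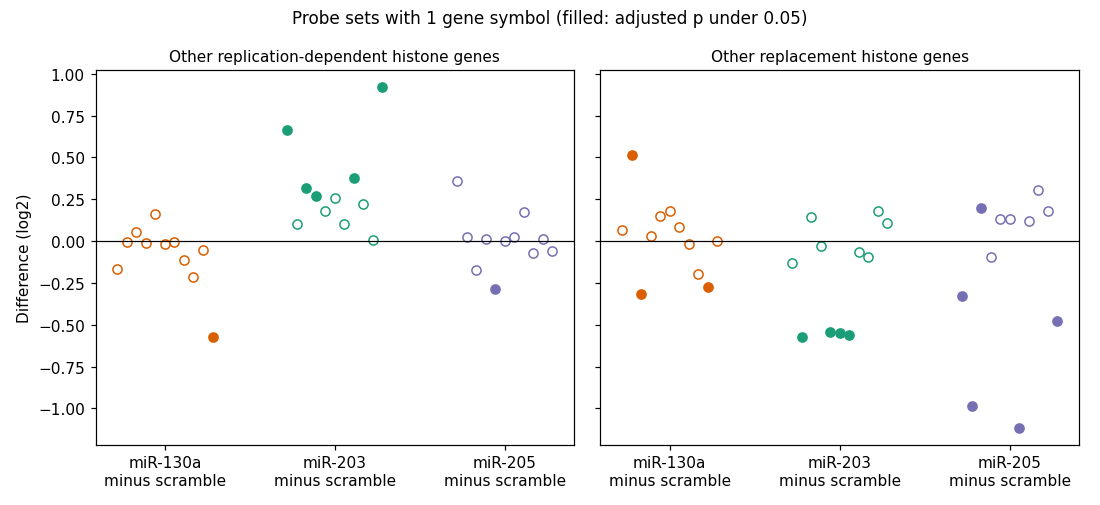
Differences from scramble (log2) of the tested probe sets with 1 gene symbol outside the 8 genes, cluster genes at left and replacement genes at right, filled where the adjusted p was under 0.05. With miR-203 the probe sets of cluster genes that passed were all above 0. Those of replacement genes that passed, which belong to H2AX and H2AZ2 only, were all below 0.

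Genes that act on histone messenger RNA were listed separately. SLBP, the stem-loop binding protein, had 7.72 to 7.81 on miR-130a arrays, 7.02 to 7.33 on miR-203 arrays and 7.21 to 7.48 on miR-205 arrays, against 7.33 to 7.43 on scramble arrays. It rose by 0.38 ± 0.10 with miR-130a (adjusted p = 0.0111), and differed by -0.17 ± 0.10 with miR-203 (adjusted p = 0.199) and -0.03 ± 0.10 with miR-205 (adjusted p = 0.856). NPAT, a coactivator of histone genes, differed by 0.12 ± 0.12 with miR-203 (adjusted p = 0.458), and CASP8AP2 by -0.04 ± 0.13 (adjusted p = 0.828). In the list of 3′ end formation factors 25 of 34 genes were tested, of which 6 rose and 1 fell with miR-203, 1 rose and 5 fell with miR-205, and 4 rose and 0 fell with miR-130a. The miR-203 count of 7 was 4 without miR-203 replicate 3 or scramble replicate 2. Of all genes tested 36.2% passed with miR-203, 17.3% higher and 18.9% lower. With miR-205 26.1% passed, 11.3% higher and 14.8% lower, and with miR-130a 23.6% passed, 12% higher and 11.6% lower. The cap-binding subunit gene NCBP2 rose by 0.58 ± 0.08 with miR-203 (adjusted p = 0.000165), by 1.02 ± 0.08 with miR-205 (adjusted p = 3.04e-06) and by 0.64 ± 0.08 with miR-130a (adjusted p = 0.000116). NUDT21, a subunit of the cleavage factor that guides the choice of poly(A) site, fell by 0.84 with miR-205 (adjusted p = 0.000164). CPSF7, its partner, was the 1 gene of the list that fell with miR-203, by 0.44 (adjusted p = 0.000997). Among the 6 that rose with miR-203 were CSTF3 by 0.50 ± 0.11 (adjusted p = 0.00453) and CPSF6 by 0.36 ± 0.07 (adjusted p = 0.00106). The list's median difference was 0.01 with miR-203, -0.06 with miR-205 and 0.14 with miR-130a.

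Histone chaperones, which carry histones to DNA, fell in 6 and rose in 2 of 26 cases with miR-203, fell in 10 and rose in 2 with miR-205, and rose in 8 and fell in 1 with miR-130a. The list's median difference was -0.08 with miR-203, -0.13 with miR-205 and 0.10 with miR-130a. For this and the other gene lists, the shares among all genes tested were 18.9% lower and 17.3% higher with miR-203. They were 14.8% lower and 11.3% higher with miR-205, and 11.6% lower and 12% higher with miR-130a. The replication-linked ASF1B fell by 0.81 with miR-203 (adjusted p = 0.00139) and by 1.30 with miR-205 (adjusted p = 5.97e-05). With miR-130a it rose by 0.55 ± 0.16 (adjusted p = 0.0223), a call lost without miR-130a replicate 1 (0.53) or 2 (0.54) or scramble replicate 1 (0.54) or 2 (0.52). RBBP4, shared by the chromatin assembly factor and other complexes, fell by 1.01 with miR-203 (adjusted p = 1.97e-05). ANP32E, the chaperone that removes H2A.Z, fell by 1.30 with miR-205 (adjusted p = 9.48e-05). The miR-205 chaperone count of 12 was 7 without miR-205 replicate 1 and 6 without replicate 3. Among 12 tested regulators of histone gene transcription, 2 rose and 1 fell with miR-203, 0 rose and 3 fell with miR-205, and 2 rose and 0 fell with miR-130a. The NF-Y subunit gene NFYC fell by 0.71 with miR-203 (adjusted p = 0.000377), and by 0.11 and not past the threshold with the mean of its probe sets. The 2 that rose with miR-203 were CREBBP by 0.54 ± 0.12 (adjusted p = 0.00375) and YY1 by 0.44 ± 0.07 (adjusted p = 0.000621). With miR-205 CCNE2 fell by 1.02 (adjusted p = 0.00552) and CDK2, the kinase of S phase entry, by 0.57 (adjusted p = 0.000547). The regulator count was 6 with miR-205 without scramble replicate 1. With miR-130a it was 0 without scramble replicate 3 and 1 without miR-130a replicate 1 or 3, any of the miR-205 arrays or scramble replicate 2.

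Genes of S phase, counted by the brightest probe set of each, moved with every microRNA. Of 22 tested, 17 fell and 0 rose with miR-203, 20 fell and 0 rose with miR-205, and 10 rose and 0 fell with miR-130a. The mean level of the 22 on an array was 5.46 to 5.73 with miR-203, 4.92 to 5.31 with miR-205 and 6.53 to 6.57 with miR-130a, against 6.01 to 6.22 on scramble arrays, with no overlap between groups. Fewer cells in S phase and less RNA per cell cannot be told apart in such bulk RNA, and the part of S phase in the histone values was not tested. The S phase count of 17 was 11 without scramble replicate 2, and that of 10 was 6 without scramble replicate 3. All 7 luminal prostate markers named on the arrays were above the array median on all arrays, but their levels moved between groups. With miR-203 4 of 7 fell and 0 rose, KLK2 at -1.60 (adjusted p = 2.82e-07), TMPRSS2 at -1.30 (adjusted p = 2.46e-06), KLK3 at -1.24 (adjusted p = 1.27e-07) and KRT18 at -0.26 (adjusted p = 0.0265). With miR-205 2 rose, KLK2 by 0.68 ± 0.11 (adjusted p = 0.000525) and KLK3 by 0.56 ± 0.08 (adjusted p = 0.000165), and 1 fell, KRT18 at -0.31 (adjusted p = 0.0133). With miR-130a 0 rose and 1 fell, KLK3 at -0.28 (adjusted p = 0.0206). The KRT18 calls were lost without miR-203 replicate 2 (-0.26) or 3 (-0.19) or scramble replicate 1 (-0.24) or 3 (-0.27) for miR-203, and without miR-205 replicate 1 (-0.27) or 3 (-0.29) for miR-205. The KLK3 call with miR-130a was lost without miR-130a replicate 1 (-0.25) or 3 (-0.27) or scramble replicate 2 (-0.26) or 3 (-0.25). The part of these markers in the histone values was not tested. Of 9 markers of other cells, 7 stayed at or below the array median throughout and 2 exceeded it on all arrays. Of these 2, ACTA2 rose by 0.44 ± 0.11 with miR-130a (adjusted p = 0.0142). With miR-203 ACTA2 was at -0.33 ± 0.11 (adjusted p = 0.0387), and 0 of the 2 passed with miR-205. The ACTA2 call with miR-130a was lost without miR-130a replicate 3 (0.38). That with miR-203 was lost without any 1 of the miR-203 replicates (-0.33, -0.37 and -0.29), among other settings. As a sign of RNA quality, GAPDH probes near the 3′ end exceeded those near the 5′ end by 0.74 to 0.80 log2 units with miR-203, 0.60 to 0.73 with miR-205 and 0.72 to 0.74 with miR-130a, against 0.56 to 0.90 on scramble arrays. The same gap for ACTB was larger, at 2.18 to 2.54 with miR-203, 2.21 to 2.46 with miR-205 and 2.18 to 2.33 with miR-130a, against 2.3 to 2.66 on scramble arrays, and the part of both in the histone values was not tested.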

How the data were processed

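Total RNA of 12 LNCaP cultures was measured on expression arrays, 3 for each of 4 groups taken from the labels. The deposited log2 values come from the authors, and, per the submitters' processing notes, the tools listed for them are limma, RMA and R 2.9.0, without their roles. The medians of the arrays ran from 2.76 to 2.78, and 29.6% to 31.6% of values sit at the lowest value. The number of arrays limits the precision, and each p-value rests on the spread among replicate arrays.

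Probe sets were named by the platform annotation (19070 with 1 symbol, 1043 with several, 2164 with none). Probe sets above the array median on at least 3 arrays were tested (11403, or 6821 genes by their probe set of highest mean for gene lists). Group means were fitted over 12 arrays with limma 3.58.1 in R 4.3.3 and eBayes, two-sided, with Benjamini-Hochberg adjustment over all of them in each of 6 comparisons (threshold 0.05). Simulated data for miR-203 against scramble had normal noise over 11403 probe sets, with a small part of them shifted in miR-203 alone. There 72% of probe sets shifted by 0.5 log2 and 99% of those shifted by 1 were recovered. In the measured data 33.5% of probe sets passed in that comparison, so the share recovered can differ from the simulated one. Deviations from the group means had a median r of 0.03 between columns of the same replicate number (-0.10 to 0.30 over 18 pairs). Between columns of different number it was -0.02 (-0.27 to 0.16 over 36 pairs).

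The members and gene lists were chosen with earlier results of these data known, so no p is given for a member. Named genes were all members, the other histone genes, up to 4 of the largest called differences of each list per comparison with scramble, of which a part is printed, and for each member the 3 genes of highest correlation. Alternatives were quantile scaling, other brightness filters, an eBayes trend, array weights, fits of 6 arrays, a replicate block, other choices of probe set and each array left out.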

Additional observations from a re-analysis of the deposited data

How the results depend on the processing

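All 1368 recomputed member differences stayed within 1 SD of the reported values, the SD being the larger of those of the groups compared. For most of the 19 alternatives this could not come out otherwise. Leaving out 1 of 3 arrays moves a group mean by less than 1 SD. Brightness filters, an eBayes trend, fits of 6 arrays and the replicate block leave the difference as it is. The bound was open only for quantile scaling and array weights. Of the differences that passed, 0 changed sign, while 49 lost and 30 gained a call. Numbers of probe sets or genes called are given with the reported number in brackets. For members with miR-130a against scramble (0) it was 1 with quantile scaling, with only probe sets above the median on all 12 arrays and in the fit of 6 arrays, 2 with array weights and 3 with an eBayes trend. With 1 probe set per gene it was 2 for miR-130a (0), 3 for miR-203 (8), 3 for miR-130a against miR-203 (8) and 5 for miR-130a against miR-205 (8), where fewer items were tested. With no filter it was 3 for cluster genes with miR-203 (5), 2 for replacement genes with miR-203 (1), 5 for chaperones (9), 0 for transcription regulators (2) and 5 for S phase genes (10) with miR-130a, and 11 for S phase genes with miR-203 (17), with more items tested. With array weights it was 8 for 3′ end factors (4) and 16 for S phase genes (10) with miR-130a, 2 for cluster genes (1) and 5 for regulators (3) with miR-205, and 2 for replacement genes with miR-203 (1), as with the trend. In fits of 6 arrays it was 0 for regulators with miR-130a (2), 3 for cluster genes (5) and 4 for 3′ end factors (7) with miR-203, and 6 for chaperones (12) and 5 for regulators (3) with miR-205. With probe sets of largest variance replacement genes numbered 1, 2 and 2 with miR-130a, miR-203 and miR-205 (2, 1 and 4) and regulators with miR-130a 1 (2), and H2AZ2 with miR-205 was at 0.13 (reported -0.33). With means of probe sets replacement genes numbered 1 and 2 with miR-130a and miR-203, 3′ end factors with miR-130a 7 (4) and chaperones with miR-203 13 (8). The causes were not tested. Leaving out each array in turn gave members 0 to 1 for miR-130a against scramble, 4 to 8 for miR-130a against miR-205 and 5 to 8 for miR-203 against miR-205. It gave cluster genes 3 to 6 with miR-203 and 0 to 2 with miR-205, 3′ end factors 4 to 7 with miR-203, chaperones 6 to 12 with miR-205, regulators 0 to 2 with miR-130a and 2 to 6 with miR-205, and S phase genes 6 to 14 with miR-130a and 11 to 17 with miR-203. With the replicate block, which the labels do not tie to a shared culture or day, members numbered 0, 8 and 7 with miR-130a, miR-203 and miR-205 (0, 8 and 6), and no count moved by over 1.5 times. With it H2BC5 by probe set B gained its call with miR-205, and H1-10 lost its call between miR-130a and miR-205, at unchanged differences of 0.25 and 0.28.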
